A study of Mus musculus with 12 samples.

Results

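Hippocampal RNA was compared between 6 libraries that carry the Ulk1OV label and 6 that do not, with the 5xFAD label held as a covariate. The libraries were taken by their group labels: Ulk1OV replicates 1 to 3 and 5xFAD;Ulk1OV replicates 1 to 3 on one side, WT replicates 1 to 3 and 5xFAD replicates 1 to 3 on the other, which is 12 of the 12 libraries of the study. WT is wild type. 5xFAD is a transgenic mouse that overproduces mutant human amyloid precursor protein and presenilin in neurons and develops amyloid plaques. Ulk1OV denotes overexpression of the kinase ULK1, and 5xFAD;Ulk1OV carries both alterations. All groups share the tissue and the library kit. The promoter or vector behind the overexpression, the cells it acts in, and the age, sex and number of the mice do not appear in the sources used here. Whether each replicate is its own animal is not stated either, so p-values cover only the spread from library to library, part of which may be technical.

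ULK1 is the serine/threonine kinase that starts autophagy. It works in a complex with ATG13, FIP200 (encoded by Rb1cc1) and ATG101, is held back by mTORC1 when nutrients are plentiful and is activated by AMPK when energy is low. The complex recruits the lipid kinase complex around Beclin 1, after which conjugated LC3 family proteins and cargo receptors build and fill the autophagosome, which then fuses with the lysosome. Much of this control acts on proteins, which RNA counts do not measure. In neurons autophagy clears protein aggregates and worn organelles, and its loss leads to neurodegeneration in mice.

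Totals ran from 16149992 to 18547132 counts per library, and 17227 genes were tested. Levels are CPM, counts relative to the library's size after TMM scaling. The first principal component (24.3% of the variance) did not follow the Ulk1OV label: it placed the Ulk1OV libraries at 24.1 to 41.3 and replicates 1 and 2 of 5xFAD;Ulk1OV at -29.1 and -30.5, beside WT replicates 1 and 2 at -29.1 and -22.1. Each library's departure from the mean across genes was correlated with GC content, with Spearman coefficients from -0.418 to 0.392, and mitochondrially encoded genes took 4.03% to 8.76% of counts. One library did not match its 5xFAD label, that labelled 5xFAD;Ulk1OV replicate 3: it had 1310 CPM of App, 954 CPM of Prnp and 0 counts of the pseudogene Lamr1-ps1, where the other 5 libraries with that label had at least 2201 CPM, 2067 CPM and 184 counts. The main counts and many of the results that rest on it are therefore also given without it. Markers of dentate granule neurons, the defining cells of the dentate gyrus, were present in every library, with 12 of 12 tested and a summed level of 613.6 to 1097 CPM.

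**Figure D1:**
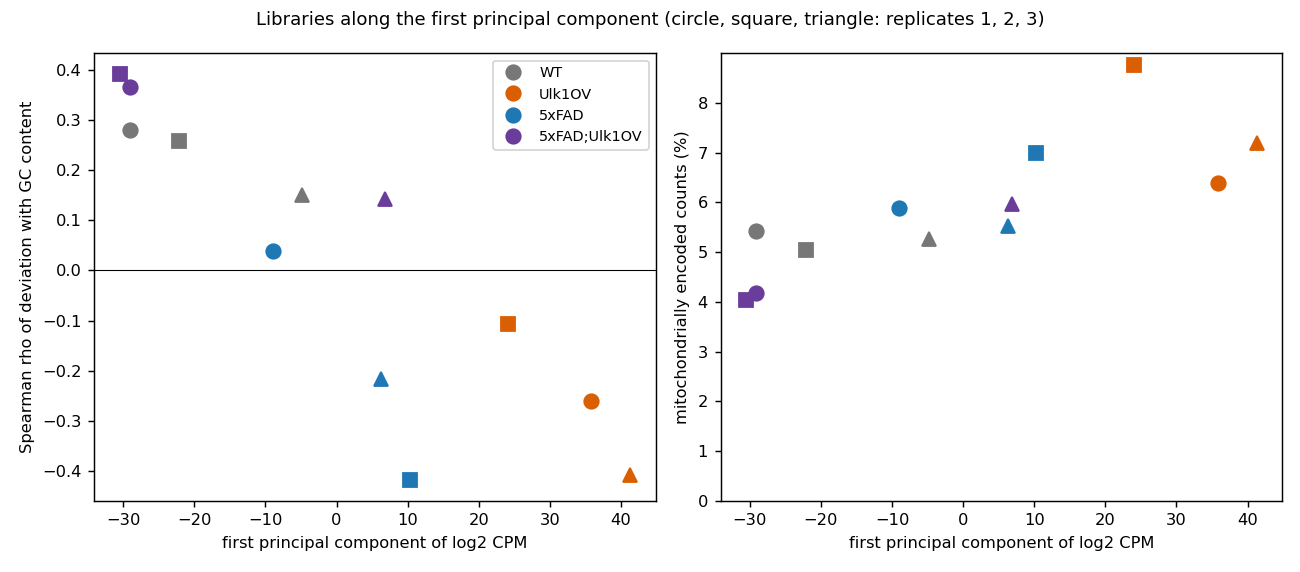
Each point is 1 library, coloured by group, with the first principal component of log2 CPM on the horizontal axes. The left panel gives the Spearman correlation of the library's log2 departure from the gene means with GC content (-0.418 to 0.392), and the right panel the share of mitochondrially encoded counts (4.03% to 8.76%); of the 6 libraries with the Ulk1OV label, 3 lie at the right (24.1 to 41.3), 2 at the left end (-29.1 and -30.5) and 1 between them (6.82).

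The transcript that the label names is given before the rest. Ulk1, located in GRCm38 on chromosome 5 ( 110784488 to 110810097, minus strand), stood at 102, 87.7 and 84.6 CPM in Ulk1OV and at 97.1, 98.5 and 85.1 CPM in 5xFAD;Ulk1OV. It stood at 77.6, 81.8 and 74.1 CPM in WT and at 86.3, 63.5 and 69.97 CPM in 5xFAD. The ranges of the 6 libraries with the label (84.6 to 102 CPM) and the 6 without it (63.5 to 86.3 CPM) overlapped only through 5xFAD replicate 1, which lay above the lowest 2 libraries with the label. The difference of mean log2 CPM was 0.30, and an exact two-sided permutation of the labels within each background (400 arrangements) gave p = 0.01, where 0.005 is the smallest p possible. In edgeR's quasi-likelihood test the log2 fold change was 0.29 ± 0.08 (SE), with an unadjusted p of 0.00345 and a Benjamini-Hochberg adjusted p of 0.748, so Ulk1 was not called among all genes. The difference was 0.23 on the WT background and 0.35 on the 5xFAD background, with an interaction of 0.12 (edgeR adjusted p = 0.664). Without the library labelled 5xFAD;Ulk1OV replicate 3 the exact two-sided permutation p was 0.015, with a difference of 0.33.

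No gene passed the pooled test. edgeR called 0 of 17227 genes (0%) at an adjusted p under 0.05, with a lowest adjusted p of 0.529. At an unadjusted p under 0.05 there were 993 genes (5.76%), 564 with a higher level under the label (3.27%) and 429 with a lower one (2.49%). Without the library labelled 5xFAD;Ulk1OV replicate 3 there were 751 of 17603 genes, with a lowest edgeR adjusted p of 0.982. With each library left out in turn this count ran from 728, without Ulk1OV replicate 3, to 1394, without Ulk1OV replicate 1. DESeq2 called 16 genes, 13 higher and 3 lower. With 1 mean per group and the backgrounds averaged, edgeR also called 0, with 1521 genes at an unadjusted p under 0.05 and a lowest adjusted p of 0.202. Pooled differences were small: the median absolute log2 fold change over all genes was 0.10, beside a median SE of 0.13. Non-overlapping ranges of 6 against 6 libraries were found in 20 genes that were higher with the label (0.116%) and in 17 that were lower (0.0987%). Of all splits of 6 against 6, only 1 puts a gene's 6 highest libraries under the label. Splitting the libraries at random would give counts of about this size in each direction. These counts therefore do not show separation beyond chance. The following genes are therefore given as values and not as called changes. Most of them were named by smallest pooled p in these same libraries, which made a lack of overlap between the arms more likely. Where a lack of overlap is given below, it is a description and was not tested.

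Among the genes with the smallest p on the higher side, 4 belong to protein folding in the endoplasmic reticulum: Pdia6, Manf, Sdf2l1 and Calr, described with their list below. Ripor2 (chromosome 13, 24582189 to 24733816) stood at 115, 93.4 and 84.1 CPM in Ulk1OV, at 79.4, 85.7 and 102 in 5xFAD;Ulk1OV, at 50.8, 63.1 and 72.4 in WT and at 74.1, 59.2 and 52.4 in 5xFAD. The 6 libraries with the label lay wholly above the 6 without. The pooled log2 fold change was 0.59 ± 0.11 (edgeR adjusted p = 0.529, DESeq2 adjusted p = 0.0062), with 0.65 and 0.52 on the WT and 5xFAD backgrounds. Ndufa13, a subunit of respiratory complex I, ranged from 107 to 146 CPM (median 114) with the label and from 75.9 to 102 (median 94.1) without it, a difference of 0.40 ± 0.08. Neu2, a cytosolic sialidase, was rare, at 1.53 to 2.17 CPM (median 1.73) against 0.496 to 1.40 (median 0.566), a difference of 1.27 ± 0.28. Hnrnpm, an RNA-binding protein of splicing, was at 91.9 to 116 CPM (median 102) against 68.3 to 89.5 (median 83.3). In Ndufa13, Neu2 and Hnrnpm, too, the 2 sets of 6 libraries did not overlap, which their choice by smallest p made more likely.

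Other genes on the higher side overlapped between the arms. Cotl1, which binds actin filaments, was at 93.2 to 116 CPM with the label and 81.5 to 93.6 without it, touching only at the edge. Npffr1, a neuropeptide FF receptor, differed by 0.99 ± 0.24 and Col6a3, a chain of collagen VI, by 1.13 ± 0.28, but both were low and spread out: Col6a3 stood at 3.54 CPM in Ulk1OV replicate 2, below 4 of the 6 libraries without the label. Fam183b differed by 0.60 ± 0.15. All 4 had an edgeR adjusted p of 0.70. Over the 20 alternatives tried, all refits of these libraries, the pooled values of the 12 genes named on the higher side kept their sign. Their choice by smallest p made this likely beforehand.

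On the lower side, Tfrc, the transferrin receptor that brings iron into cells (chromosome 16, 32608920 to 32632794), had the smallest p. It stood at 83.1, 59.2 and 58.8 CPM in Ulk1OV, at 82.7, 75.3 and 58.2 in 5xFAD;Ulk1OV, at 98.5, 94.9 and 92.2 in WT and at 100, 114 and 102 in 5xFAD. The 6 libraries with the label lay wholly below the 6 without. The log2 fold change was -0.53 ± 0.10 (edgeR adjusted p = 0.529, DESeq2 adjusted p = 0.0062), -0.51 on the WT and -0.55 on the 5xFAD background, and -0.47 pooled without the library labelled 5xFAD;Ulk1OV replicate 3.

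Tnc, Ncan, Itga4 and Kcnb2 were also among the genes with the smallest p on the lower side. Tnc, which encodes the matrix protein tenascin C, ranged from 3.21 to 4.66 CPM (median 3.95) with the label and from 4.47 to 7.08 (median 6.41) without it, a difference of -0.66 ± 0.15. Ncan, the chondroitin sulphate proteoglycan neurocan, was at 113 to 144 CPM (median 129) against 146 to 184 (median 163), with no overlap and a difference of -0.36 ± 0.09. Itga4, the integrin alpha 4 subunit, was at 10.7 to 14.8 CPM against 15.5 to 21.2, also with no overlap, and differed by -0.45 ± 0.11. Kcnb2, a voltage-gated potassium channel, had 10.3 to 18.3 CPM (median 14.2) against 18.7 to 23.8 (median 20.3), a difference of -0.53 ± 0.13.

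The other lower genes differed by less or overlapped. Acaca, acetyl-CoA carboxylase and so the first committed step of fatty acid synthesis, differed by -0.22 ± 0.06, from a median of 66.5 CPM without the label to 55.2 with it. Emc1, of the complex that inserts membrane proteins into the endoplasmic reticulum, differed by -0.25 ± 0.06. The difference was -0.29 ± 0.08 in Arhgef26 and -0.43 ± 0.11 in Sytl2, a Rab27 effector. It was -0.79 ± 0.20 in Naaladl2, -0.23 ± 0.06 in Nkain2 and -0.31 ± 0.08 in Fam69a. The edgeR adjusted p was 0.70 for each gene of the lower side other than Tfrc.

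**Figure D2:**
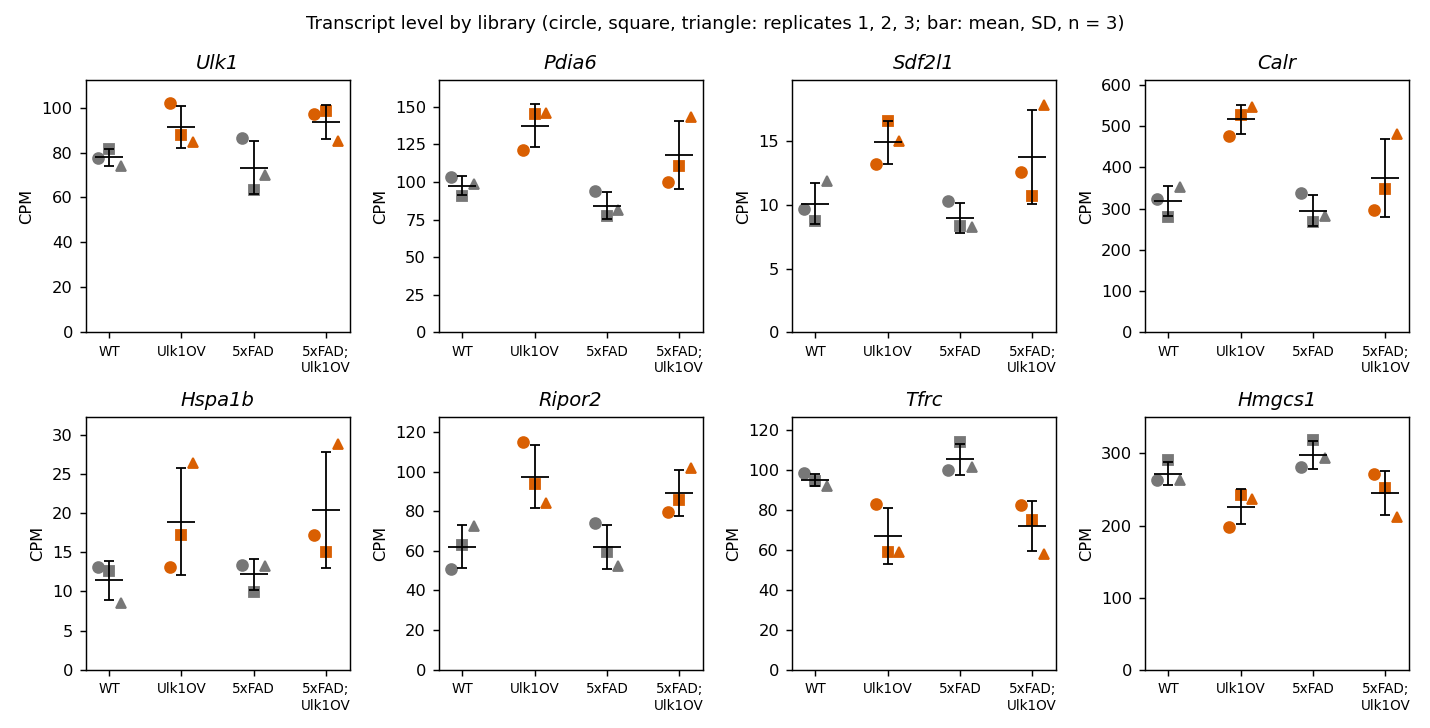
Each panel shows 1 gene in CPM on an axis that starts at 0, with 1 symbol per library and bars for the mean and SD of 3 libraries; orange marks the Ulk1OV label. Ripor2 and Tfrc separate all 6 libraries with the label from the 6 without, while in Calr replicates 1 and 2 of 5xFAD;Ulk1OV (297 and 347 CPM) lie in the range of the libraries without the label.

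Of the 18 lists of pathway genes, that of the endoplasmic reticulum unfolded protein response had the most members at a small p. These are chaperones and folding enzymes that cells make more of when unfolded proteins build up in that compartment. Of 18 members tested 0 were called, 17 had a higher value with the label and 12 of them an unadjusted p under 0.05, where the background is 3.27%. The median log2 fold change was 0.27, against -0.01 over all genes tested. DESeq2 called 4 members: Pdia6, Manf, Calr and Sdf2l1.

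Pdia6, a protein disulfide isomerase (chromosome 12, 17266545 to 17284770), stood at 121, 145 and 146 CPM in Ulk1OV and 100, 110 and 143 in 5xFAD;Ulk1OV, against 103, 90.9 and 98.8 in WT and 94.1, 77.2 and 81.7 in 5xFAD. Within each background its libraries with the label lay above those without, and the pooled difference was 0.49 ± 0.09 (edgeR adjusted p = 0.529, DESeq2 adjusted p = 0.00543). The value was 0.49 on the WT and 0.48 on the 5xFAD background. Calr, the calcium-binding lectin chaperone calreticulin (chromosome 8, 84841850 to 84846934), stood at 477, 527 and 546 CPM in Ulk1OV, 297, 347 and 480 in 5xFAD;Ulk1OV, 324, 281 and 353 in WT and 337, 267 and 281 in 5xFAD. Replicates 1 and 2 of 5xFAD;Ulk1OV thus lay among the libraries without the label, and the pooled difference of 0.52 ± 0.12 was made of 0.69 on the WT and 0.34 on the 5xFAD background.

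Manf, a secreted stress-induced factor, ranged from 34.4 to 63.4 CPM (median 51.7) with the label and from 31.1 to 37.0 (median 35.0) without it, a difference of 0.52 ± 0.10. Sdf2l1, a partner of lumenal chaperones, ranged from 10.7 to 17.8 CPM (median 14.1) against 8.27 to 11.9 (median 9.18), a difference of 0.59 ± 0.13. Hspa5 (BiP) and Hsp90b1 (GRP94), the 2 main lumenal chaperones, are added outside the naming rule, after their values were seen. Hspa5 differed by 0.54 ± 0.15 and Hsp90b1 by 0.46 ± 0.12 in the pooled fit, and their values on the 5xFAD background were 0.26 and 0.16.

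The summed level of the list shows which libraries carried these values. It was 2919, 2980 and 3172 CPM in Ulk1OV and 2707 CPM in the library labelled 5xFAD;Ulk1OV replicate 3. Replicates 1 and 2 of 5xFAD;Ulk1OV had 2012 and 2125 CPM, within the 1969 to 2236 CPM of the 6 libraries without the label. The list's median was 0.48 on the WT background and 0.18 on the 5xFAD background. Without the library labelled 5xFAD;Ulk1OV replicate 3, the 5xFAD background gave a median of 0.03, with 10 of 18 members higher, and the pooled fit a median of 0.23 with 11 members at an unadjusted p under 0.05. Pdia6 had 0.34 on the 5xFAD background without that library, Sdf2l1 0.39, Manf 0.18, Calr 0.14, Hspa5 0.02 and Hsp90b1 -0.02.

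Promoters of this list were searched for an element named after the same stress response. How often the list holds it is therefore not independent of how its genes were chosen. The endoplasmic reticulum stress element, searched on both strands as CCAAT and CCACG with 9 free bases between them, in RefSeq windows (GRCm38.p6) from 250 bases before to 50 bases after each start, was found in 8 of the 16 members with a window (50%). It was found in 20 of 12264 windows of tested genes (0.163%) and in 35 of 27025 windows overall (0.13%). The 8 were Hspa5, Hsp90b1, Pdia6, Calr, Canx, Dnajc3, Creld2 and Syvn1. A match is a description of these letters and shows no binding. The element was present both in members with a pooled difference, such as Pdia6, and in Canx and Syvn1, whose pooled values were 0.06 ± 0.07 and -0.06 ± 0.09. The upstream stretches of Pdia6 (chr12:17266339-17266544, plus strand), Calr (chr8:84846935-84847181, minus strand) and Hsp90b1 (chr10:86705510-86705694, minus strand) are shown from RefSeq, 5′ to 3′ in the direction of each gene, ending where GENCODE M21 starts the gene. Capitals mark the element, which reads CGTGG first where it lies on the other strand.
Pdia6: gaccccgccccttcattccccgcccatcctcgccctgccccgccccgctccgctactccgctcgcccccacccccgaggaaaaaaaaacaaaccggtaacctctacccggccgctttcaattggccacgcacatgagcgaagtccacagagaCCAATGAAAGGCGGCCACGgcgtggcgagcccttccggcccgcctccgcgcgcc
Calr: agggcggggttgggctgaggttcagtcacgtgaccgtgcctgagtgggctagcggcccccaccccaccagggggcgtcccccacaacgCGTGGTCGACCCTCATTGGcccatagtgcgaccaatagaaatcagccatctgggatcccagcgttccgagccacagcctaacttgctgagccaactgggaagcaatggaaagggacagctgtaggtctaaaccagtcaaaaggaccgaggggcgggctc
Hsp90b1: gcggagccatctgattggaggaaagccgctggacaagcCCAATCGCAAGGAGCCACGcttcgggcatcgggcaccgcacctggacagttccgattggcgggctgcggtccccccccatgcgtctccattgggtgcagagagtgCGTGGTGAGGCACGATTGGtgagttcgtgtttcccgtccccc
Pdia6 held 1 match on the gene's own strand, Calr 1 on the other strand, and Hsp90b1 1 on each.

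Heat shock proteins, the chaperones of the cytosol and mitochondria, all had pooled values above 0. Of 18 tested 0 were called and 8 had an unadjusted p under 0.05 on the higher side, where the background is 3.27%, with a median of 0.23. Dnajb1, a co-chaperone of HSP70, was at 64.6 to 83.9 CPM (median 69.8) with the label and 52.9 to 62.3 (median 61.7) without it, with no overlap and a difference of 0.26 ± 0.08. Fkbp4 and Stip1, co-chaperones of HSP90, differed by 0.33 ± 0.09 and 0.34 ± 0.10. Hspa1b, an inducible HSP70, differed by 0.74 ± 0.19, with 13.1, 17.2 and 26.4 CPM in Ulk1OV and 17.2, 15.1 and 28.8 in 5xFAD;Ulk1OV against 8.51 to 13.3 in the other 6 libraries, a range that Ulk1OV replicate 1 shares. Hspa1b has a near-identical neighbour, Hspa1a, so its count is uncertain.

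The libraries again divided in the same places for the heat shock list. Its summed level was 7894, 8594 and 9771 CPM in Ulk1OV and 7901 in the library labelled 5xFAD;Ulk1OV replicate 3, against 6624 and 6414 in replicates 1 and 2 of 5xFAD;Ulk1OV and 6283 to 7033 in the 6 libraries without the label. Without that library the median on the 5xFAD background went from 0.10 to 0.03, and the pooled count at an unadjusted p under 0.05 from 8 to 7. With each library left out in turn that count ran from 6 to 11. The heat shock element, searched on both strands as GAA, TTC and GAA with 2 free bases between neighbours, was in 3 of 14 windows of the list (21.4%) and in 0.375% of those of tested genes. Its holders were Hsph1, Hspe1 and Chordc1, and no match was found for Dnajb1, Fkbp4, Stip1 or Hspa1b.

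Cholesterol synthesis genes lay on the lower side. Of 22 tested 0 were called, 21 had a pooled value below 0 and 10 of them an unadjusted p under 0.05, where the background is 2.49%; the median was -0.21. Hmgcs1, which makes the precursor of mevalonate (chromosome 13, 119690379 to 119708260), stood at 198, 243 and 237 CPM in Ulk1OV and 272, 252 and 212 in 5xFAD;Ulk1OV, against 263, 291 and 263 in WT and 281, 318 and 294 in 5xFAD. Within each background its libraries with the label lay below those without, by -0.27 on WT and -0.28 on 5xFAD, and the pooled difference was -0.27 ± 0.08 (edgeR adjusted p = 0.748). Without the library labelled 5xFAD;Ulk1OV replicate 3 the Hmgcs1 value was -0.17 on the 5xFAD background (unadjusted p = 0.138 in edgeR) and -0.23 pooled. Dhcr7, a sterol reductase of the last steps, differed by -0.27 ± 0.07, and Msmo1, a methylsterol oxidase, by -0.28 ± 0.08.

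The summed level of the cholesterol list was 1257, 1441 and 1396 CPM in Ulk1OV and 1429 in the library labelled 5xFAD;Ulk1OV replicate 3, beside 1732 and 1578 in replicates 1 and 2 of 5xFAD;Ulk1OV and 1601 to 1763 in the 6 libraries without the label. Without the library labelled 5xFAD;Ulk1OV replicate 3 the median on the 5xFAD background went from -0.18 to -0.07, and 7 members had an unadjusted p under 0.05 in the pooled fit. The sterol element, searched on both strands as TCAC and CCAC with 1 free base between them, was in 1 of 16 windows (6.25%), that of Hmgcs1, and in 1.04% of those of tested genes.

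The autophagy lists showed no such side. Of 18 genes of the ULK complex and autophagy initiation, Ulk1 alone had an unadjusted p under 0.05, and the list's median was 0.02. Among the partners of ULK1 the pooled values, with 95% intervals, were -0.09 (-0.24 to 0.06) for Atg13, 0.02 (-0.26 to 0.30) for Rb1cc1 and 0.09 (-0.09 to 0.26) for Atg101. The paralog Ulk2 had -0.07 (-0.22 to 0.09). Rb1cc1, the scaffold of the complex, differed in opposite directions on the backgrounds: it stood at 143, 119 and 137 CPM in Ulk1OV against 88.6, 101 and 108 in WT, and at 94.7, 91.1 and 106 in 5xFAD;Ulk1OV against 122, 134 and 127 in 5xFAD. The interaction was -0.81 ± 0.14 (edgeR adjusted p = 0.00634).

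The lists of conjugation, signalling and lysosomal genes had pooled medians of 0.00, 0.01 and -0.03. Over all genes tested, 3.27% were higher and 2.49% lower at an unadjusted p under 0.05. Among 25 genes of autophagosome conjugation and cargo receptors 1 was higher and 1 lower at an unadjusted p under 0.05: Calcoco1, 0.16 ± 0.06, and Optn, the receptor optineurin, -0.29 ± 0.13. Without the library labelled 5xFAD;Ulk1OV replicate 3, Optn had -0.21 and an unadjusted p of 0.112. The interaction was called for 10 of these 25 genes (4 with a larger and 6 with a smaller value on the 5xFAD background), where it was called for 12.8% of all genes. Among 30 genes of mTOR and AMPK signalling, Deptor, an inhibitor within mTOR complexes, had the smallest p: it ranged from 14.2 to 22.0 CPM (median 16.7) with the label and from 20.7 to 25.6 (median 21.8) without it, a difference of -0.40 ± 0.11 (edgeR adjusted p = 0.707). Prkaa2, a catalytic subunit of AMPK, differed by -0.25 ± 0.09 and Lamtor2, of the complex that anchors mTORC1 to the lysosome, by 0.23 ± 0.09. Of 30 lysosomal genes 2 were higher at an unadjusted p under 0.05. Hexa, the alpha subunit of beta-hexosaminidase, was at 58.7 to 63.4 CPM (median 62.0) with the label and 49.6 to 57.7 (median 54.0) without it, with no overlap, and Gaa, acid alpha-glucosidase, differed by 0.19 ± 0.07.

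Nuclear genes of the respiratory chain and cytosolic ribosome genes had pooled medians slightly above 0, at 0.11 over 44 and 0.10 over 46 members. Their medians were -0.03 and -0.04 on the WT background, and 0.20 for both lists on the 5xFAD background. The interaction was called for 29.5% and 17.4% of the members, where it was called for 12.8% of all genes. In the pooled fit 6 and 3 members were higher at an unadjusted p under 0.05, where the background is 3.27%. Cox7c, a subunit of cytochrome c oxidase, was at 240 to 357 CPM (median 258) with the label and 198 to 237 (median 234) without it, and Rps23, of the small ribosomal subunit, at 308 to 460 (median 331) against 256 to 301 (median 290). Neither overlapped, and both have processed pseudogenes that could share their reads. Cox5b differed by 0.40 ± 0.11 and Uqcrb, of complex III, by 0.32 ± 0.09. With each library left out in turn, the respiratory count ran from 4 to 18 and the ribosomal count from 2 to 18, and both highest counts came without Ulk1OV replicate 1. The 13 protein genes of the mitochondrial genome had medians of 0.44 on the WT and -0.43 on the 5xFAD background, and 0.01 pooled; mt-Atp6, which overlaps mt-Atp8, differed by 0.79 ± 0.37.

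Synapse genes lay slightly below 0. Of 28 synapse genes 27 had a pooled value below 0, with a median of -0.11. At an unadjusted p under 0.05 there were 4, all lower, where the background is 2.49%. The count was 1 without the library labelled 5xFAD;Ulk1OV replicate 3 or without 5xFAD replicate 3, and 7 without 5xFAD replicate 2. Nlgn1, the adhesion protein neuroligin 1, differed by -0.29 ± 0.10 and Grin2a, a subunit of NMDA receptors, by -0.35 ± 0.15. Genes that neurons induce on activity had 4 of 25 lower at an unadjusted p under 0.05, beside the same 2.49%. Their medians were -0.66 on the WT and 0.08 on the 5xFAD background. Without the library labelled 5xFAD;Ulk1OV replicate 3 the latter median was 0.18, with 21 of 25 genes higher on that background. The pooled count was 1 without Ulk1OV replicate 2 and 9 without 5xFAD;Ulk1OV replicate 1. Egr1, a transcription factor of this kind, stood at 105, 61.9 and 72.0 CPM in Ulk1OV against 172, 206 and 165 in WT, and at 130, 137 and 122 in 5xFAD;Ulk1OV against 139, 138 and 126 in 5xFAD. Its interaction was 1.13 ± 0.22 and that of Fos 1.28 ± 0.28 (edgeR adjusted p = 0.00826 and 0.0125).

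Marker lists of cell types were measured beside these groups. In bulk tissue, fewer cells of a type and less RNA per cell cannot be told apart. Genes of ependyma and motile cilia all had pooled values above 0, with a median of 0.53. Of 18, 6 had an unadjusted p under 0.05, where the background on the higher side is 3.27%. Foxj1, the master transcription factor of motile cilia, was at 34.0, 32.6 and 33.1 CPM in Ulk1OV and 31.8, 28.1 and 57.3 in 5xFAD;Ulk1OV, against 24.6, 21.8 and 34.0 in WT and 8.42, 26.5 and 20.5 in 5xFAD. The summed level of the list was 177.1 to 353.6 CPM with the label (median 309.3) and 108.5 to 280.5 (median 189.5) without it. The highest library was the one labelled 5xFAD;Ulk1OV replicate 3 and the lowest 5xFAD replicate 1. Without the former, 3 members had an unadjusted p under 0.05 and the median on the 5xFAD background went from 0.15 to -0.15. Without 5xFAD replicate 2 the count was 12.

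Among 14 interneuron markers 3 were higher and 1 lower at an unadjusted p under 0.05, where 3.27% of all genes were higher and 2.49% lower. Dlx1, a transcription factor of forebrain interneurons, differed by 0.45 ± 0.12, Slc32a1, the vesicular GABA transporter, by 0.30 ± 0.11 and Reln, which encodes reelin, by -0.44 ± 0.13. Astrocytes had 2 of 14 higher, among them the connexin gene Gjb6 at 0.32 ± 0.09. Without the library labelled 5xFAD;Ulk1OV replicate 3, Gjb6 had 0.28 pooled and 0.04 on the 5xFAD background. Microglial lists had 0 of 18 disease-associated and 0 of 15 homeostatic markers at an unadjusted p under 0.05, with medians of -0.09 and -0.04. The disease-associated median was 0.01 without the library labelled 5xFAD;Ulk1OV replicate 3. Choroid plexus markers moved with single libraries and not with the label: Ttr ranged from 12.3 to 3994 CPM with it and from 5.09 to 5949 without it. Where these marker levels differ between libraries, their part in the pathway values was not tested.

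**Figure D3:**
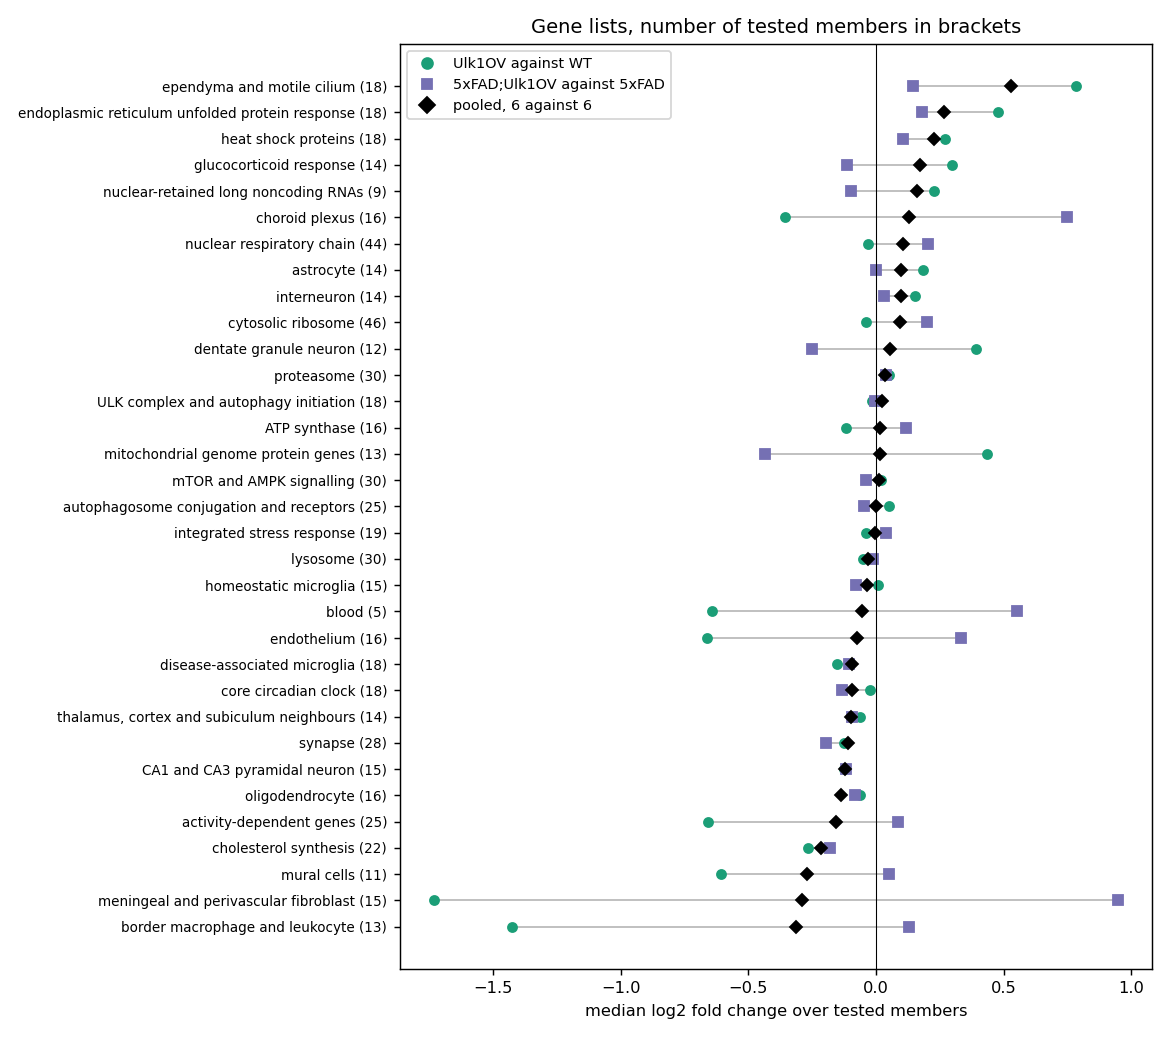
For each list, with its number of tested members in brackets, the diamond gives the median pooled log2 fold change, the circle the median for Ulk1OV against WT and the square that for 5xFAD;Ulk1OV against 5xFAD. Lists with a pooled median near 0 include both those with small values on each background (lysosome, -0.03 pooled) and those whose backgrounds lie on opposite sides (mitochondrial genome, 0.44 and -0.43).

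The pooled value assumes that the label acts alike on both backgrounds, and the interaction tested this. It was called for 2197 genes (12.8%), 1171 with a larger value on the 5xFAD background (6.8%) and 1026 with a smaller one (5.96%), at a lowest adjusted p of 0.00275. In 2183 of them (99.4%) the fitted values on the backgrounds had opposite signs, which 11122 of all 17227 tested genes also had. Their choice by a large difference between the backgrounds made opposite signs likely beforehand. The median absolute pooled log2 fold change of these 2197 genes was 0.08 beside a median absolute interaction of 0.73. With each library corrected for its trends with GC and with length, the count was 902, with 406 larger and 496 smaller on the 5xFAD background, of which 634 were among the 2197. With each library left out in turn it ran from 974, without Ulk1OV replicate 3, to 2596, without Ulk1OV replicate 2. Across all tested genes the interaction had a Spearman correlation of 0.51 with GC content and the pooled difference one of -0.02; genes are not independent replicates.

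Within the backgrounds the counts were unequal. On the WT background 891 genes were called (5.17%), and on the 5xFAD background 8 (0.0464%). Of the 891, 797 (89.5%) had the opposite sign on the 5xFAD background. At an unadjusted p under 0.05 there, 432 of the 891 had the opposite sign and 6 the same sign. Over all genes 17.4% had such a p on that background, in either direction. The 368 that were higher on WT (2.14%) had a median of 0.46 there and -0.20 on 5xFAD, and the 523 that were lower (3.04%) had -0.74 and 0.35. The WT background count fell to 0 without WT replicate 1, WT replicate 2 or Ulk1OV replicate 3, and with the GC and length correction it was 520, of which 283 were higher and 237 lower. All 8 genes called on the 5xFAD background had the opposite sign on WT, and that count was 0 in 8 of the 12 fits that left out 1 library and 260 without 5xFAD replicate 1. The backgrounds share no library: over all genes their log2 fold changes had a Pearson r of -0.27 and a Spearman coefficient of -0.33, given as a description, and 6103 genes (35.4%) had the same sign on both.

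The genes with the strongest interaction show the shape of these differences. Atp5k, a small subunit of ATP synthase (chromosome 5, 108433244 to 108434448), stood at 10.4, 15.7 and 7.90 CPM in Ulk1OV against 63.0, 64.8 and 68.8 in WT, and at 68.0, 65.5 and 69.7 in 5xFAD;Ulk1OV against 38.3, 14.6 and 14.1 in 5xFAD. The interaction was 4.14 ± 0.45 and the pooled value -0.42 ± 0.69. Ndufa1 (complex I), Atp5e (ATP synthase), Pfdn6 (prefoldin) and Tceal5 had interactions of 1.52, 1.54, 1.43 and 1.59. On the other side, mt-Nd6, whose counts overlap those of the opposite strand, had -1.36 and Zfr, an RNA-binding protein, -0.86. Tgs1, which methylates the cap of small nuclear RNAs, had -0.88. Ppp4r3b, a regulatory subunit of protein phosphatase 4, had -0.83 and Wac -0.71. Pooled values of these 10 genes lay between -0.42 and 0.17.

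Markers of meningeal and perivascular fibroblasts followed the same crossing. Of 15 tested, 11 had a called interaction, with medians of -1.73 on the WT and 0.95 on the 5xFAD background. Fmod, an extracellular matrix proteoglycan, stood at 15.8, 10.03 and 10.5 CPM in Ulk1OV against 66.1, 48.6 and 31.0 in WT, and at 57.4, 71.5 and 22.1 in 5xFAD;Ulk1OV against 23.8, 24.7 and 29.7 in 5xFAD. The library labelled 5xFAD;Ulk1OV replicate 3 lay below the 5xFAD libraries for Fmod, and without it the median of the list on the 5xFAD background was 1.26. In Slc6a20a, a transporter of these cells, the interaction was 2.996 ± 0.59 and in Fmod 2.95 ± 0.51. Of the pathway lists with the most members at a small pooled p, the interaction was called for 4 of 18 genes of the unfolded protein response, 3 of 18 heat shock genes and 4 of 22 cholesterol genes, where the background is 12.8%.

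**Figure D4:**
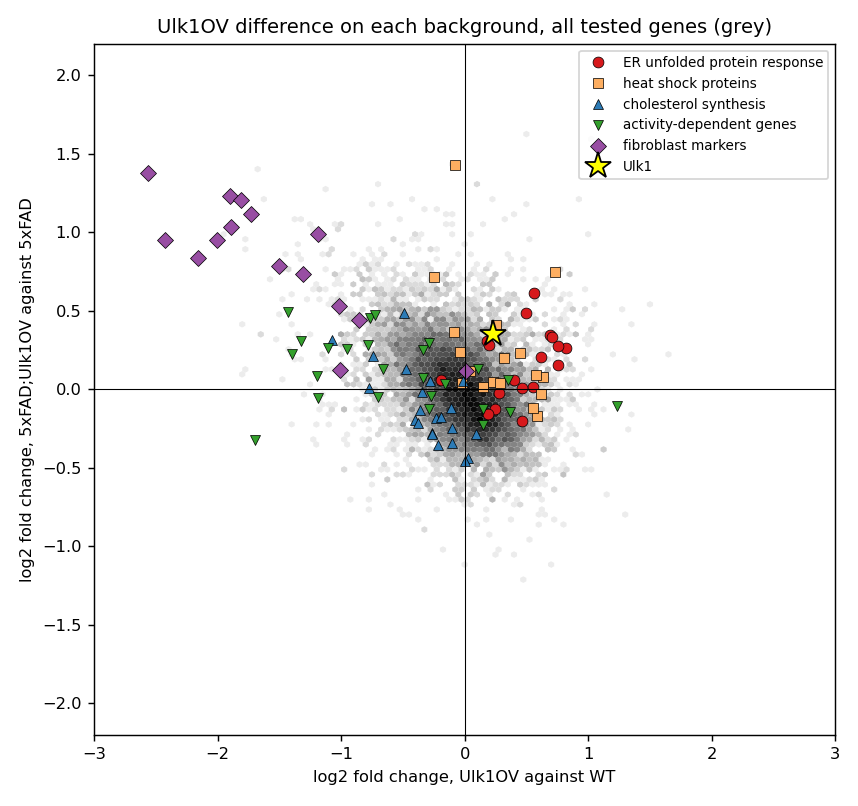
Each tested gene is placed by its log2 fold change for Ulk1OV against WT (horizontal) and for 5xFAD;Ulk1OV against 5xFAD (vertical), grey shade giving the number of genes on a log scale; 38 genes outside the axes are not drawn. The grey cloud leans from upper left to lower right (Spearman coefficient -0.33), fibroblast markers lie at its upper left end, most unfolded protein response genes at upper right, most cholesterol genes at or below 0 on both axes, and Ulk1 at 0.23 and 0.35.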

How the data were processed

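Bulk hippocampal RNA from 12 libraries was read from 1 table of gene counts that the authors deposited, covering 54427 genes, of which 22784 were at 0 throughout. The submitters' processing notes name FastQC, Trim Galore, HISAT2, SAMtools, featureCounts, DESeq2 and mm10, without versions. The sources used here do not say whether counting used strand, and 24 symbols had been turned into dates.

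Counts were tested as deposited with edgeR 4.0.16 (R 4.3.3; TMM, filterByExpr over the 4 groups, quasi-likelihood F test, Benjamini-Hochberg, called at 0.05). The pooled fit was additive in the 5xFAD and Ulk1OV labels. The interaction and the values within backgrounds came from 1 mean per group. DESeq2 1.42.0, other scaling, no filter, a replicate block, GC and length offsets (loess span 0.4; 99.3% of tested genes had both) and leaving out each library were the alternatives. The fits were tested on simulated data. Replicate pairs differed beyond sampling noise (chi-square per degree of freedom 6.78 to 27.5).

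Genes were named by rule: up to 12 per direction of the pooled comparison, filled by smallest p because none was called, 5 per direction of the interaction, up to 4 per list by pooled p, and Ulk1 with its partners, at a mean of at least 1 CPM, without unnamed models or pseudogenes. The comparison, members and lists were chosen with earlier results of these data known. Motifs had been planned for called list members. With none called, whole lists were searched.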

Additional observations from a re-analysis of the deposited data

Results flagged for a closer look

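Of 166 sets of 6 libraries examined (83 genes, with and without the Ulk1OV label), 7 held a library apart from the other 5. Its gap to the nearest, as a ratio of the whole range, was over Dixon's 95% critical value. Gap and range were taken on a log2 scale of CPM, so the ratios do not follow from the CPM values directly. Chance alone gives about 5%, or 1 in 20 sets. The ciliary genes Ccdc153 and Foxj1 were low in 5xFAD replicate 1 (5.03 and 8.42 CPM, ratios 0.771 and 0.637), as was the GABA transporter gene Slc32a1 (45.6 CPM, ratio 0.634). Foxj1 was also high in the library labelled 5xFAD;Ulk1OV replicate 3 (57.3 CPM, ratio 0.732). Among libraries with the label, Cox5b was low in Ulk1OV replicate 1 (143 CPM, ratio 0.632), Rpl35 high in Ulk1OV replicate 2 (229 CPM, ratio 0.741) and Kcnj8, a pericyte channel, low in Ulk1OV replicate 3 (1.91 CPM, ratio 0.639).

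The difference between the values on the 2 backgrounds was called by edgeR (Benjamini-Hochberg) for 2197 genes. Among those named it was 4.14 for Atp5k, 1.52 for Ndufa1, 1.54 for Atp5e, 1.43 for Pfdn6 and 1.59 for Tceal5. It was -1.36 for mt-Nd6, -0.86 for Zfr, -0.83 for Ppp4r3b, -0.71 for Wac and -0.88 for Tgs1. Further values were -0.81 for Rb1cc1, 1.13 for Egr1, 1.28 for Fos, 2.95 for Fmod and 2.996 for Slc6a20a.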

How the results depend on the processing

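The pooled count was 0 with edgeR in every alternative except no filter on low counts (51 genes, 44 higher and 7 lower), and DESeq2 called 16. Leaving out each library in turn gave 0 to 0 pooled calls. On the WT background the 891 calls became 1856 with DESeq2, 2079 without a filter, 520 with the GC and length correction and 0 to 1294 with each library left out. On the 5xFAD background the 8 calls became 721 with DESeq2, 18 with its size factors, 901 without a filter, 0 with the GC and length correction, 0 with only the 6 libraries of that comparison and 0 to 260 with each library left out. The interaction's 2197 calls became 902 with the GC and length correction and 974 to 2596 with each library left out. Without the library labelled 5xFAD;Ulk1OV replicate 3 the calls were 1183 on the WT background, 12 on the 5xFAD background and 2539 for the interaction. The Ulk1 difference ran from 0.25 to 0.36 (log2) with each library left out. Fits that leave a library out also have fewer samples. The cause of the changes was not tested.

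Replicate numbers did not pair the libraries: 18 same-number pairs had r from -0.18 to 0.22, 4 of them over 0.1, and 5 of 12 libraries correlated best with 1 of their own number. With a replicate block there were 0 pooled calls, 1033 on the WT background, 0 on the 5xFAD background and 2259 for the interaction. The block together with the GC and length correction gave 0, 442, 0 and 798.

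Pooled values of single genes kept their direction and side of the threshold in 1630 settings, became called in 25 (DESeq2 or no filter) and turned in 5, all for Rb1cc1: -0.07, -0.03 and -0.01 without WT replicates 1, 2 and 3, -0.05 without Ulk1OV replicate 1 and -0.03 without Ulk1OV replicate 3 (range with each library left out -0.068 to 0.087). Most of these genes had been picked by a small pooled p, which made a kept direction likely. With a median SE of 0.13, most pooled differences of the median size, 0.10, were not detectable with 6 libraries an arm.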

Other observations

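Lists not described above also held no called gene in the pooled edgeR fit. The share of all genes at an unadjusted p under 0.05 was 3.27% higher and 2.49% lower. Integrated stress response genes, which share upstream signals with the unfolded protein response, had 0 of 19 at an unadjusted p under 0.05 and a median of -0.01, and proteasome genes had 0 of 30 and a median of 0.03. ATP synthase genes had 2 of 16 higher with a pooled median of 0.01, and medians of -0.12 on the WT and 0.12 on the 5xFAD background. Glucocorticoid response genes had 1 of 14 higher, and the core circadian clock had 2 of 18 lower, among them Ciart, a repressor of the clock, at -0.57 ± 0.16.

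Nuclear-retained long noncoding RNAs had 0 of 9 at an unadjusted p under 0.05, with a median of 0.16 that was 0.04 without the library labelled 5xFAD;Ulk1OV replicate 3. Oligodendrocyte markers had 1 of 16 lower, Opalin, and a median of -0.14; with each library left out the median ran from -0.21 to -0.04 and the count from 0 (without WT replicate 3, 5xFAD replicate 2 or the library labelled 5xFAD;Ulk1OV replicate 3) to 6 (without 5xFAD replicate 1). Endothelial markers had 0 of 16 and medians of -0.66 on the WT and 0.33 on the 5xFAD background, with a called interaction in 7, where 12.8% of all genes had one. Mural cell markers had 1 of 11 lower, Kcnj8 at -0.40 ± 0.18, and border macrophage and leukocyte markers had 1 of 13 lower, Lyve1 at -0.62. Blood genes had 0 of 5. Medians on the WT and 5xFAD backgrounds were -0.61 and 0.05 for mural cells and -0.64 and 0.55 for blood. For border macrophages and leukocytes they were -1.43 and 0.13. The interaction was called in 4 mural, 4 border and 1 blood gene, beside the same 12.8%. Pyramidal neuron markers of CA1 and CA3 had 1 of 15 higher and neighbouring regions (thalamus, cortex and subiculum) 1 of 14 higher and 1 lower; the higher gene was Prkcd in both lists, at 0.78 ± 0.22.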
